A study of Mus musculus with 18 samples.

Results

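The mean genotype effect is the average, over 3 treatments, of the difference between macrophages labelled as knockout for ribosomal protein L13a and wild type macrophages. It was taken from all 18 libraries of the study, 9 of each genotype, and all 12514 of 21954 genes that passed a filter on low counts were members. The cells were bone marrow derived macrophages of mice, which are grown in culture from marrow precursors. Each genotype was left untreated, treated with IFN (an interferon whose type the labels do not name) or treated with IL4 (interleukin-4), with 3 libraries in each of the 6 groups. Libraries keep the number of their titles: 1 to 3 are untreated, 4 to 6 received IFN and 7 to 9 received IL4. The labels call the knockout L13a KO and the controls WT, the series title calls the knockout specific to macrophages, and no Cre driver, strain, age or sex is named. Whether replicates stem from different mice or different dishes is not stated, and p-values therefore reflect the spread among these libraries, which may be technical.

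L13a, encoded by Rpl13a, belongs to the large subunit of the ribosome. In myeloid cells exposed to interferon-gamma it can leave the ribosome and join the GAIT complex (interferon-gamma activated inhibitor of translation), which binds certain inflammatory transcripts and blocks their translation. Interferon-gamma and IL4 drive macrophages toward the states named M1 and M2. Loss of ribosomal proteins is known to stabilise p53, the transcription factor that halts the cell cycle under stress. RNA levels show no translation, so a block of translation would be seen here only through transcripts that change in amount.

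Library depth lay between 18098711 and 28477342 expected counts. The 10 macrophage markers together stood at 8792 to 16389 CPM (counts scaled to a fixed library total) in wild type libraries and at 8184 to 19263 CPM in knockout libraries, and 0 of the 10 was called. Fibroblast and stromal markers, 20 in all, summed to 97.9 to 949 CPM in wild type and 45.3 to 1083 CPM in knockout libraries, with none of the 20 at 0 throughout. In untreated cells these sums did not overlap, at 904 to 949 CPM in wild type and 121 to 440.1 CPM in knockout libraries. In bulk RNA, fewer cells of a type and less RNA per cell cannot be told apart. Y-linked transcripts were present in 5 of 9 wild type libraries (1, 4, 5, 7 and 8, at 116 CPM or more in sum) and in 0 of 9 knockout libraries, so both sexes were among the wild type libraries. Untreated wild type libraries 2 and 3 were far more alike than any other replicates: chi-square divided by its degrees of freedom was 6.01 for this pair and 51.6 to 185 for the others. Without one or the other of them 37 and 36 genes were called. Libraries holding the same place in their treatment (1, 4 and 7, for example) deviated from their group means in the same direction. Within a genotype all 18 such pairs correlated above 0, with a median of 0.526 across 9712 genes, where the 36 pairs of other places had a median of -0.314. The pattern crossed the genotypes too. Between them, 9 of 9 same-numbered pairs (median 0.475) and 17 of 18 other pairs of 1 place (median 0.373) were above 0. The 54 pairs of other places had a median of -0.213. Deviations within a group sum to 0 for each gene. Where pairs of 1 place lie above 0, pairs of other places must therefore lean below it. Their negative medians are thus no separate evidence. The labels do not say what libraries of 1 place share. They did not all come from 1 animal, since wild type library 2 had 0 CPM of Y-linked transcripts and wild type libraries 5 and 8 had 116 and 125 CPM. Counts of called genes are also given under a fit that lets libraries of 1 genotype and place be correlated.

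Averaged over the treatments, 49 genes differed between the genotypes, 29 higher and 20 lower in the knockout. They were led by a near absence of Lyz2, the lysozyme of macrophages, and included a fall of Rpl13a itself and rises of 4 p53 target genes. edgeR's quasi-likelihood test called them at a Benjamini-Hochberg adjusted p under 0.05. They made up 0.392% of the genes tested, with 0.232% higher and 0.16% lower. At an unadjusted p under 0.05 there were 1281 genes, or 10.2%. Changes are given as log2 fold changes of knockout minus wild type with a standard error (SE). The smallest called change was 0.42 on this scale (1.34-fold), and 32 of the 49 were at least 2-fold, 19 of them higher and 13 lower. All 49 had the same sign in the 3 treatments, as had 39.1% of all genes. In 31 of them the genotypes did not overlap in any treatment, a pattern held by 49 genes of the 12514 (0.392%). In 15 of them all 9 knockout libraries lay on 1 side of all 9 wild type libraries, which held for 15 genes in all (0.12%). The median SE was 0.138 for the mean and 0.234 to 0.241 for a single treatment. A smaller SE follows from averaging 3 contrasts of 1 fit, which takes the libraries of different treatments as independent. In untreated, IFN-treated and IL4-treated cells alone the same fit called 10, 8 and 8 genes (0.0799%, 0.0639% and 0.0639%), from the same libraries. Of the 49 genes, 37 were called in no single treatment. With correlated libraries of 1 place in limma-voom (estimated correlation 0.428), 11 genes were called, all among the 49. Of these, 5 were lower, among them Lyz2, Cnbd2, Rab4a and Dynlt1b, and 6 were higher, namely Pira2, Fam177a, Phlda3, Nnt, Lyz1 and 1700047I17Rik2. When the counts of each place were summed to 3 values per genotype, Lyz2 alone was called. In both fits wild type libraries 2, 5 and 8 were joined, although 2 differed from 5 and 8 in its Y-linked transcripts. With the Y-linked transcripts as a covariate 48 genes were called, 25 of them among the 49, and in the 13 libraries without these transcripts 18 were called, 14 of them among the 49.

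**Figure D1:**
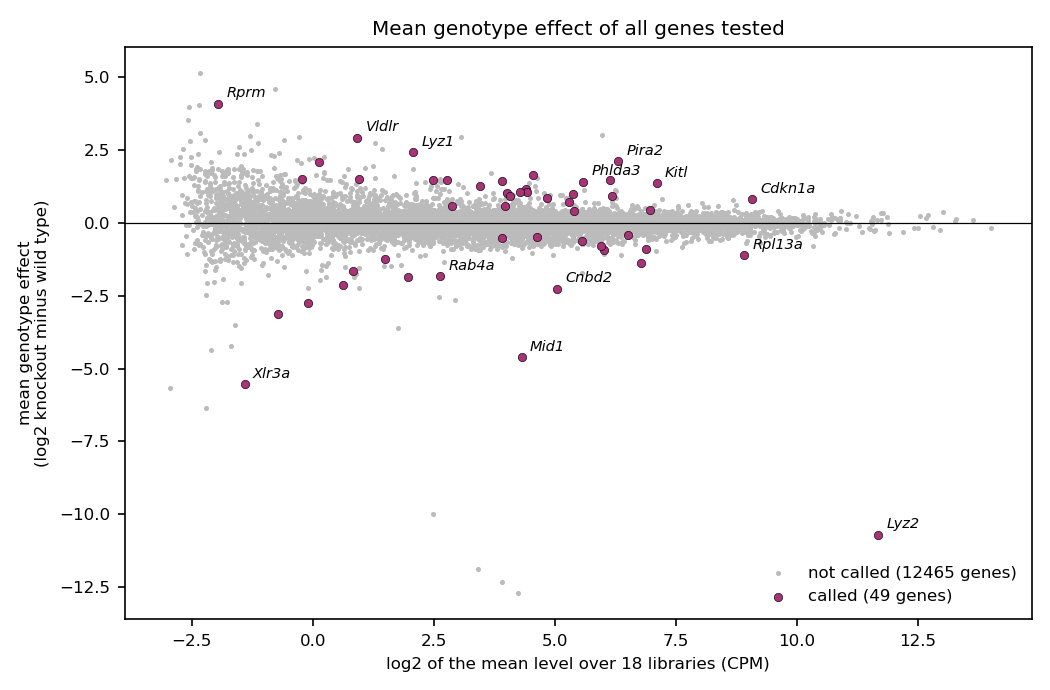
Mean genotype effect (log2 knockout minus wild type) against mean level (log2 CPM) for the 12514 genes tested, with the 49 called genes as large points. Lyz2 lies apart at -10.70, and of the 4 grey points near it 3 are Y-linked transcripts (Uty, Eif2s3y and Ddx3y) and 1 is Erdr1, none of them called.

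**Figure D2:**
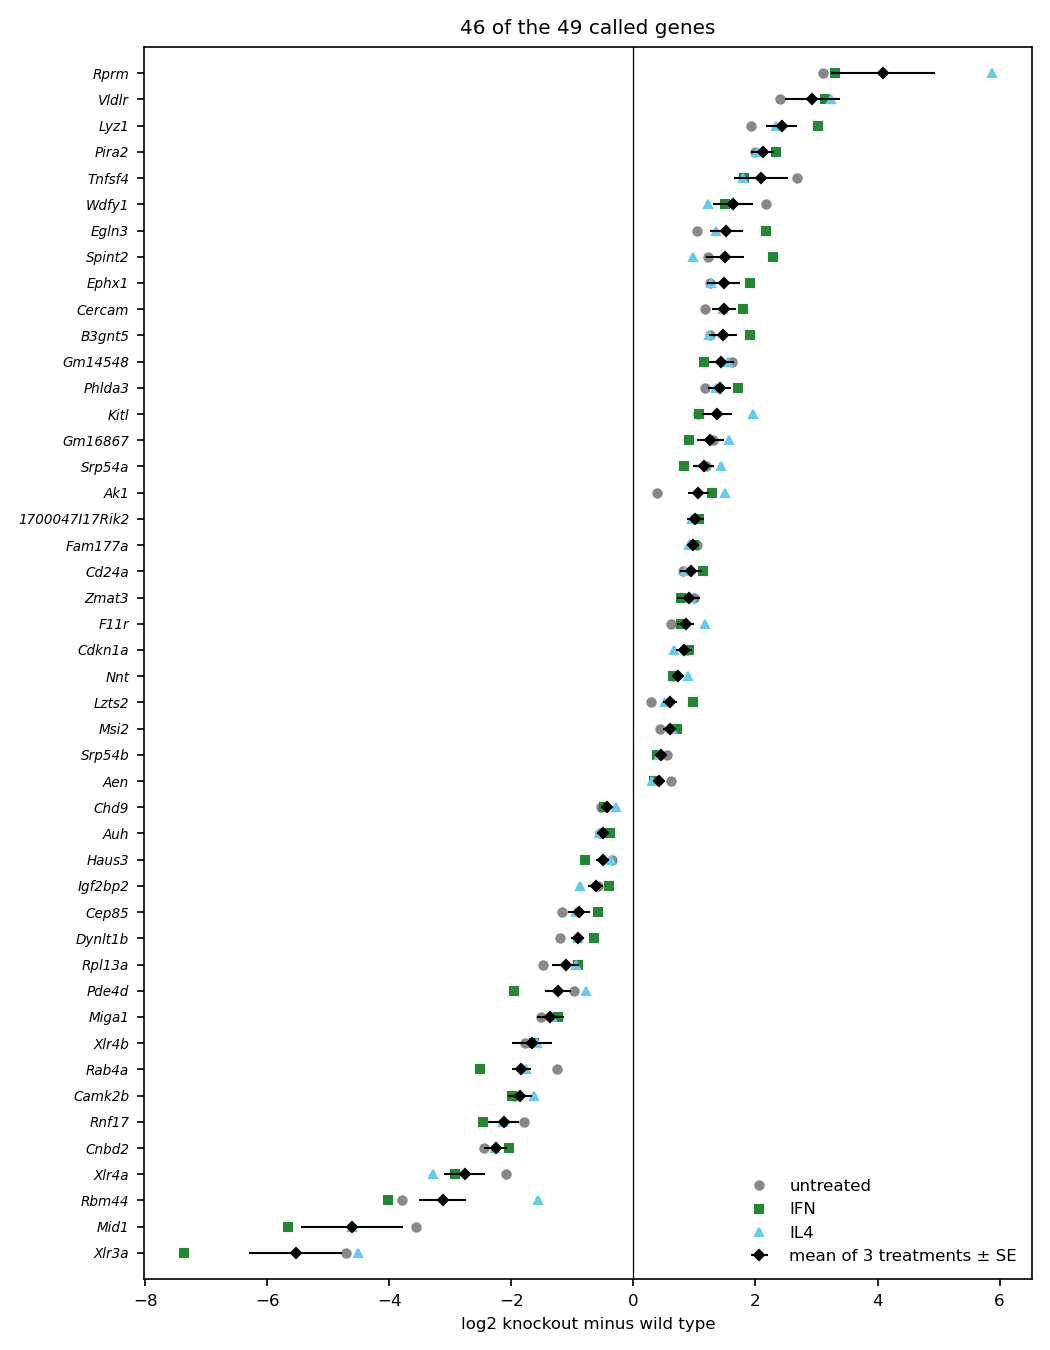
Log2 difference of knockout minus wild type for 46 of the 49 called genes, Lyz2 and 2 genes not reported here left out, as the mean of 3 treatments with its SE (black) and in each treatment. In every row the 3 treatments lie on the same side of 0.

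The targeted gene was measured first. Rpl13a (ENSMUSG00000074129, chromosome 7, 45125558 to 45128761, minus strand, GRCm38) lay between 437 and 867 CPM in wild type libraries (median 618) and between 156 and 606 CPM in knockout libraries (median 248). The 9 and 9 overlapped, since knockout libraries 3, 6 and 9 had 401, 425 and 606 CPM, the highest of their groups, while the lowest wild type library, IFN 4, had 437. The mean effect was -1.11 (SE 0.225, 2.15-fold lower, edgeR adjusted p = 0.046), with -1.47 untreated, -0.90 after IFN and -0.95 after IL4. It was called in 3 of the 18 fits that left out 1 library, and not with correlated libraries of 1 place in limma-voom (adjusted p = 0.11). Permuting the genotype labels within each treatment, 8000 arrangements in all, gave a two-sided exact p of 0.0005, where the smallest possible is 0.00025. Each treatment was shuffled on its own, as if its libraries were independent of the other treatments. Libraries of 1 place were correlated, so this p may be too small. Transcripts of Rpl13a were thus lower on average and present in every knockout library. Whole-gene counts do not show which exons they held.

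Lyz2 parted the genotypes completely. This gene (ENSMUSG00000069516, chromosome 10, 117277331 to 117282321, minus strand) encodes the bacteriolytic enzyme lysozyme of macrophages, and Cre is often inserted at this locus to delete genes in myeloid cells. Whether that was done here is not in the labels. Its level ran from 2881 to 12108 CPM in wild type libraries and from 0.682 to 7.12 CPM in knockout libraries. The mean effect was -10.70 (SE 0.358, edgeR adjusted p = 4.4e-11), and the exact permutation p was 0.00025, the smallest possible, with the same limit as for Rpl13a. Lyz1 (chromosome 10, 117287797 to 117292868), its neighbour and the lysozyme gene of the gut's Paneth cells, went the opposite way. It stood at 0.656 to 2.84 CPM in wild type (median 1.07) and 3.62 to 13.8 CPM in knockout libraries (median 6.11), without overlap. Its mean effect was 2.43 (SE 0.254, 5.38-fold higher, edgeR adjusted p = 0.000116). The lower Rpl13a and the near absence of Lyz2 went with the same libraries, so what goes with either cannot be told apart in these genotypes.

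The 2 lysozyme transcripts are close copies, and the start of their coding sequences is shown because it sets how well reads can be assigned to either. The longest open reading frame was 492 bases for Lyz2 and 447 bases for Lyz1. The last 447 bases of the Lyz2 frame and the Lyz1 frame differ at 22 positions. The first 150 of these 447 bases, read from the GENCODE vM21 transcripts (GRCm38) and given 5′ to 3′, differ at the 14 positions in capitals.
Lyz2: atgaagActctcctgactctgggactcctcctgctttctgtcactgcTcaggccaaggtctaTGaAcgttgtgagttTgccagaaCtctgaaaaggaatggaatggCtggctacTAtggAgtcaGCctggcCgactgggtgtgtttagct
Lyz1: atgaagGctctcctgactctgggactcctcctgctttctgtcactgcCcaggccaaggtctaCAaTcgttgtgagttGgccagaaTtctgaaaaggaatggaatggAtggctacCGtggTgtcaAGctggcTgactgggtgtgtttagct
The differences are denser in these 150 bases than in the rest of the 447 compared. How reads were divided between the genes was not tested, and the split of their counts is uncertain.

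**Figure D3:**
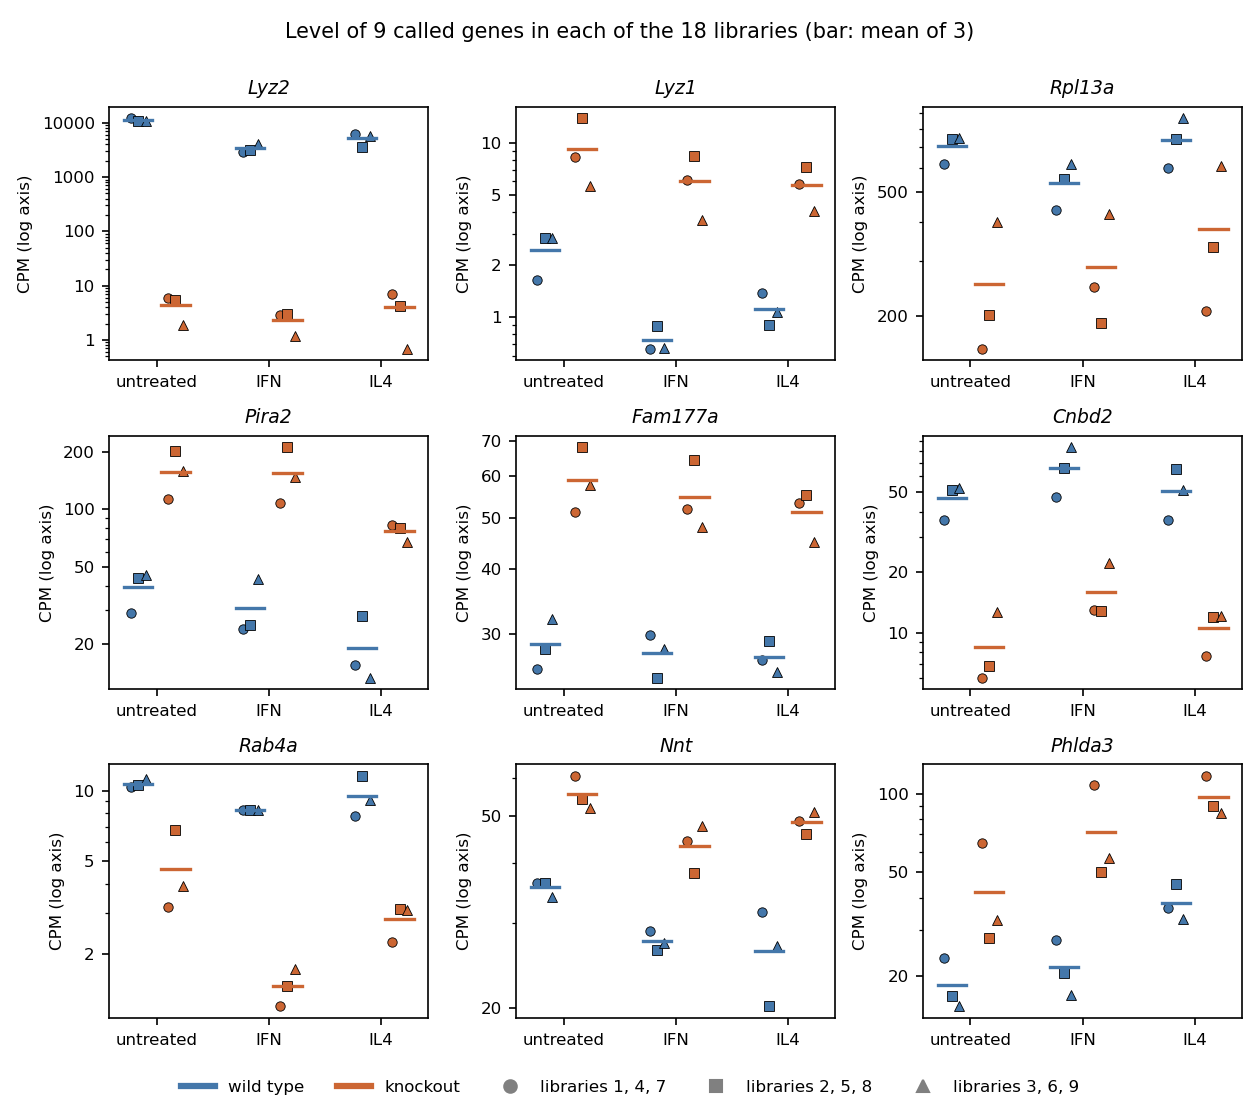
Level in CPM (log axes) of 9 called genes in each library, by treatment, with wild type in blue, knockout in orange and a bar at the mean of 3. Point shapes mark the place of a library in its treatment. For Lyz2, Lyz1, Pira2, Fam177a, Cnbd2, Rab4a and Nnt all knockout points lie on 1 side of all wild type points.

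Cnbd2, Rab4a and Camk2b were the largest falls after Lyz2 among genes taken by the naming rule that were called in each of the 18 fits leaving out 1 library. Cnbd2 (chromosome 2, 156312299 to 156375638), which encodes a protein with a cyclic nucleotide binding domain, was at 36.1 to 83.7 CPM in wild type (median 51.3) and 5.99 to 22.2 CPM in knockout libraries (median 12.1). Its mean effect was -2.25 (SE 0.189, 4.76-fold lower, edgeR adjusted p = 1.47e-05), and the values in the 3 treatments, -2.45, -2.04 and -2.27, were close to each other. Rab4a, a GTPase that returns endosomes to the cell surface (chromosome 8, 123805985 to 123835287), had 7.76 to 11.6 CPM in wild type and 1.19 to 6.77 CPM in knockout libraries, again without overlap. It fell by 1.84 on the log2 scale (SE 0.156, edgeR adjusted p = 1.47e-05), least in untreated cells (-1.25) and most after IFN (-2.51). Camk2b, a subunit of the calcium-dependent kinase CaMKII, had a median of 7.03 CPM in wild type and 1.97 CPM in the knockout, with a mean effect of -1.86 (edgeR adjusted p = 0.000131). A single wild type library, untreated 3, was as low as 1.59 CPM, within the range of the knockout.

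Dynlt1b and Miga1 were lower as well and were called in each of those fits. Dynlt1b, part of the dynein motor, was at 67.6 to 108 CPM in wild type and 31.5 to 65.7 CPM in knockout libraries, and the 2 ranges did not meet. Its mean effect was -0.91 (SE 0.102, edgeR adjusted p = 0.000178). Miga1, a protein of the outer mitochondrial membrane involved in fusion, was at 106 to 233 against 32.5 to 90.9 CPM (-1.36, SE 0.223, edgeR adjusted p = 0.00854).

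The remaining falls named by size were less firm. Cep85 of the centrosome (-0.90, edgeR adjusted p = 0.0401), the RNA-binding protein Igf2bp2 (-0.62, 0.0476) and Haus3 of the augmin complex of the spindle (-0.50, 0.0482) were called in 5, 4 and 2 of the 18 fits that left out 1 library. Mid1, a ubiquitin ligase on microtubules encoded on the X chromosome, had a mean effect of -4.61 (SE 0.837, edgeR adjusted p = 0.0204), but its level followed the Y-linked transcripts. It stood at 42.6 to 86.9 CPM in the 5 wild type libraries that held these transcripts and at 1.91 to 5.53 CPM in the 4 that did not, where knockout libraries had 0.57 to 3.85 CPM. With the Y-linked transcripts as a covariate its adjusted p was 0.19.

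Among the rises, Pira2 and Fam177a were the clearest. Pira2 (chromosome 7, 3836812 to 3845051) encodes a paired immunoglobulin-like receptor that activates myeloid cells. It was at 13.3 to 45.4 CPM in wild type (median 27.8) and 67.3 to 211 CPM in knockout libraries (median 113), and no value was shared. The mean effect was 2.12 (SE 0.189, 4.35-fold higher, edgeR adjusted p = 1.88e-05), at 2.00, 2.34 and 2.03 in untreated, IFN-treated and IL4-treated cells. Fam177a (chromosome 12, 55124469 to 55142104) had 24.8 to 32.1 CPM in wild type and 44.9 to 68.1 CPM in the knockout (0.98, SE 0.0849, 1.97-fold higher, edgeR adjusted p = 1.47e-05). Levels of Fam177a were nearly the same in the 3 treatments of a genotype, as the plot of levels by library shows. With Lyz2 and Cnbd2, these were the 4 genes called in each single treatment too.

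Kitl and Wdfy1 were also higher. Kitl, the ligand of the KIT receptor (stem cell factor), lay at 23.1 to 171 CPM in wild type (median 58.5) and 141 to 305 CPM in knockout libraries (median 184). Its mean effect was 1.37 (SE 0.246, edgeR adjusted p = 0.0197). The highest wild type library, IFN 6, exceeded the lowest knockout libraries. In each treatment, wild type libraries with Y-linked transcripts had less Kitl than those without them. With these transcripts as a covariate the effect of Kitl was 0.91 (edgeR adjusted p = 0.154). In the libraries without them it was 0.94 (edgeR adjusted p = 0.162). Wdfy1, an endosomal adaptor of Toll-like receptor signalling, rose by 1.63 on the log2 scale (edgeR adjusted p = 0.046), from a median of 10.8 to 31.9 CPM. Its wild type libraries with Y-linked transcripts stood at 10.8 to 24 CPM and those without them at 3.78 to 6.2 CPM, both below most of the knockout range of 20.5 to 69.3 CPM.

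Several of the other named rises were genes of enzymes. Ephx1, the microsomal epoxide hydrolase, had a median of 15.9 CPM in wild type and 77.2 CPM in the knockout (1.48, SE 0.268, 2.79-fold higher, edgeR adjusted p = 0.0199). These medians pool treatments of unlike level, and in untreated cells the genotypes overlapped. Ephx1 was called in 14 of the 18 fits that left out 1 library. It was not called with correlated libraries of 1 place in limma-voom (adjusted p = 0.192). The median of B3gnt5, a glycosyltransferase of lacto-series glycolipids, went from 2.67 to 8.01 CPM (1.47, edgeR adjusted p = 0.00493). That of Cercam, named as an adhesion molecule of brain endothelium, went from 3.54 to 10.4 CPM (1.48, 0.00147). Ak1, an adenylate kinase, was higher by 1.06 (edgeR adjusted p = 0.00793), with 0.39 in untreated cells and 1.29 and 1.51 after IFN and IL4. Nnt, the mitochondrial transhydrogenase that makes NADPH, was outside the naming rule and chosen after its values were seen. It stood at 20.2 to 36.4 CPM in wild type and 38.1 to 60.7 CPM in knockout libraries, without overlap (0.73, SE 0.0819, edgeR adjusted p = 0.000178).

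Target genes of p53 were the only one of 41 gene lists with 3 or more called members. Of 31 tested, 4 were called, all higher, against 0.232% of all genes called higher. At an unadjusted p under 0.05, 15 of 31 were higher (48.4%), against 4.44% of all genes. In all 27 of 31 lay above 0, and the median was 0.37, against 0.0094 over all genes tested. Cdkn1a encodes p21, the inhibitor of cyclin-dependent kinases through which p53 halts the cycle. It was at 192 to 546 CPM in wild type (median 453) and 328 to 1079 CPM in knockout libraries (median 678). Both genotypes had more of it after IFN or IL4, and within treatments the genotypes overlapped after IL4 and in no other. The mean effect was 0.82 (SE 0.13, 1.77-fold higher, edgeR adjusted p = 0.00597). Phlda3, a p53-induced inhibitor of the kinase Akt, had a median of 23.6 CPM in wild type and 65.1 CPM in the knockout (1.42, SE 0.192, 2.67-fold higher, edgeR adjusted p = 0.00149). Its highest level, 117 CPM, was in knockout library 7, and libraries 1, 4 and 7 were the highest of their knockout groups. Zmat3, an RNA-binding zinc finger protein, and Aen, a nuclease active in apoptosis, rose by 0.91 (edgeR adjusted p = 0.046) and 0.42 (0.0383), and each was called in 3 of the 18 fits that left out 1 library. With correlated libraries of 1 place in limma-voom, Phlda3 was the called gene among these 4 (adjusted p = 0.0169), while Cdkn1a had an adjusted p of 0.0911.

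A stretch before a start of Cdkn1a is shown because it holds the letters of a p53 site. The core of such a site was searched as CATGNNNNNNCATG, a pattern that reads the same on both strands and in which N is any base. It was present in 234 of 32851 RefSeq promoter windows of 300 bases (0.712%), each from 250 bases before to 50 after a start on GRCm38.p6. Of the 31 tested p53 targets 22 had a window, and 1 of these held the pattern. This was the first of 2 windows of Cdkn1a, of which the 250 bases before the start (chr17:29090729-29090978, plus strand) are given 5′ to 3′ with the 2 copies of CATG in capitals.
Cdkn1a: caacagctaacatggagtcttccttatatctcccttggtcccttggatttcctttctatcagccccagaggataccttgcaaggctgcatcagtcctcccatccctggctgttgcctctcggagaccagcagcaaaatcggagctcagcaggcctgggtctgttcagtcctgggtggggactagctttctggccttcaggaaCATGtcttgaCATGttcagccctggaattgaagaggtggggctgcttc
The pattern begins 48 bases before the start. Windows of Phlda3 and Aen held no match, which says only that these letters are not in those 300 bases.

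The libraries of a genotype were far from alike in the p53 list and in the genes of cell division. For each library, the median over a list's genes was taken of log2 CPM minus the mean of the 6 libraries of its treatment. For p53 targets, knockout libraries 1, 4 and 7 stood at 0.44, 0.54 and 0.55, and 3, 6 and 9 at 0.003, -0.10 and -0.10. Wild type libraries 1, 4 and 7 were likewise the highest of their groups, at 0.024, 0.11 and -0.026. The genotypes thus overlapped in each treatment at the level of the list.

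Genes of DNA replication and mitosis had the reverse order of knockout libraries in each treatment. All 54 tested lay below 0 in the mean, with a median of -0.58 (-0.44 untreated, -0.91 after IFN and -0.37 after IL4). None was called, and 28 had an unadjusted p under 0.05 and a value below 0, against 5.8% of all genes. Knockout libraries 1, 4 and 7 stood at -1.33, -1.01 and -1.27, while 3, 6 and 9 stood at 0.58, 0.29 and 0.54. Wild type libraries lay between 0.0083 and 0.74. After IFN the genotypes did not overlap, at 0.36 to 0.74 in wild type and -1.01 to 0.29 in knockout libraries. They overlapped in untreated and IL4-treated cells. Knockout library 5, at -0.94, was close to library 4, and knockout libraries 3 and 9 were above all wild type libraries of their treatments. Over the alternatives the median ranged from -1.12 to -0.35.

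**Figure D4:**
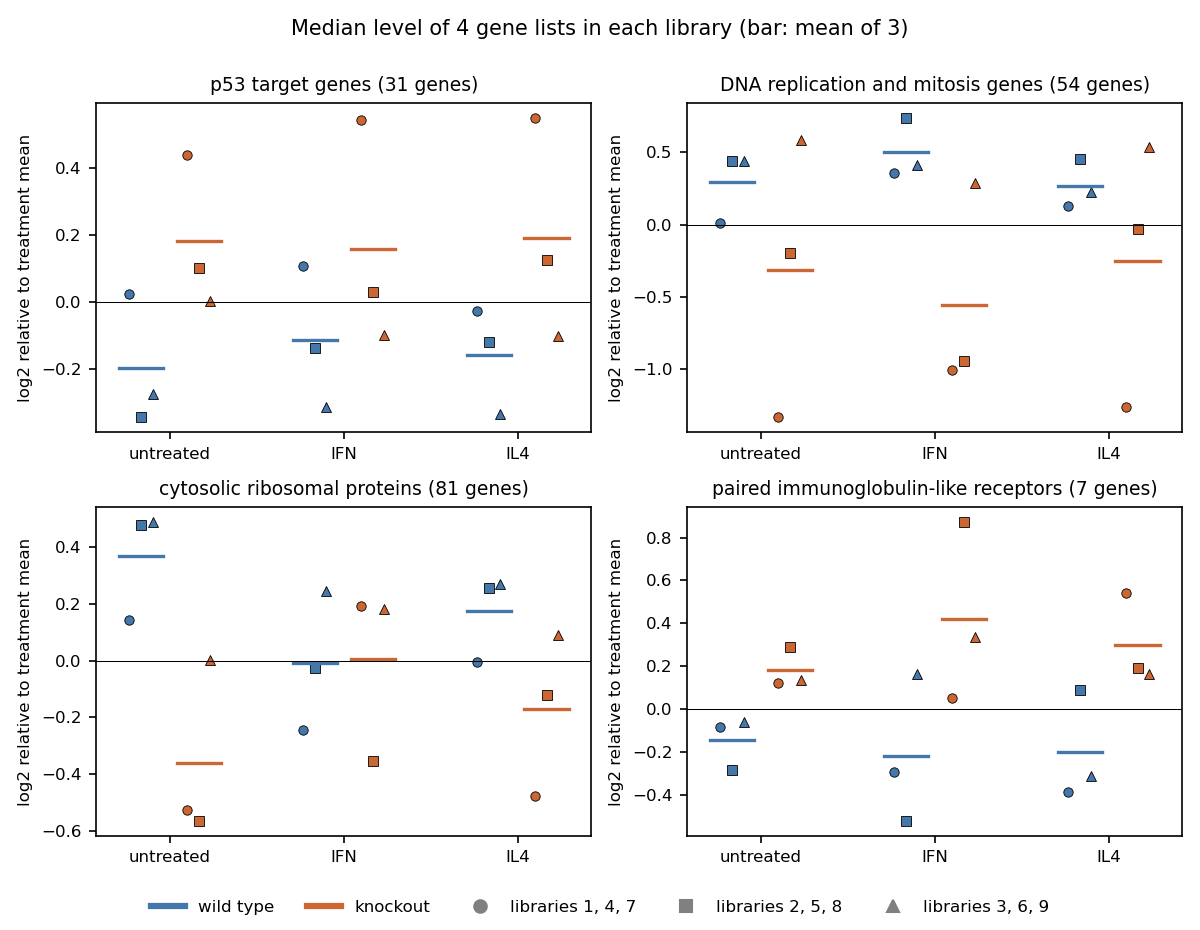
Median level of 4 gene lists in each library, as log2 relative to the mean of the 6 libraries of that treatment, with a bar at the mean of 3 and point shapes for the place in the treatment. Knockout libraries 1, 4 and 7 (circles) are the highest for p53 targets and the lowest for replication and mitosis genes in every treatment.

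The ribosome's own genes were examined next, since L13a is one of its proteins. Of 81 cytosolic ribosomal protein transcripts, Rpl13a not counted, all had a mean effect below 0, from -1.04 to -0.0079, and 0 were called. An unadjusted p under 0.05 was reached by 56 of them, all below 0, against 5.8% of all genes. The list's median was -0.33, made of -0.74 in untreated cells, -0.0063 after IFN and -0.32 after IL4. By library, knockout untreated 1 and 2 stood at -0.53 and -0.57, below every wild type library, while knockout IFN 4 and 6 were above 0. The genotypes did not overlap in untreated cells and overlapped in the other treatments. The summed stromal markers parted the genotypes in the same untreated libraries, at 904 CPM or more in wild type and 440.1 CPM or less in the knockout, and their part in the difference was not tested. Translation factors of the same class of transcripts, which begin with a terminal oligopyrimidine tract, lay below 0 in 19 of 20 cases with a median of -0.24, and 0 were called. Ribosome biogenesis factors were split, 13 above and 26 below 0 (median -0.019). Transcripts of mitochondrial ribosomal proteins had a median of -0.07 over 59 genes, and 0 of them reached an unadjusted p under 0.05.

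Mitochondrial energy genes leaned the same way by smaller amounts. All 13 mitochondrially encoded transcripts were below 0 (median -0.23), as were 67 of 76 nuclear genes of oxidative phosphorylation (median -0.10), with 0 called in either list. In both lists the median after IFN was above 0, at 0.12 and 0.14, while those of untreated and IL4-treated cells were below. Under some of the alternatives the medians of both lists passed 0, with highest values of 0.019 and 0.016.

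Among 9 genes of the GAIT complex and its kinases, Rpl13a was the called member (against 0.392% of all genes called), 7 lay below 0, and the median was -0.028. Eprs, the tRNA synthetase that anchors the complex, was at 78.7 to 156 CPM in wild type and 77.2 to 139 CPM in the knockout (-0.14, SE 0.098, edgeR adjusted p = 0.736). The 6 tested transcripts studied as GAIT targets had a median of 0.08 and 0 calls. Vegfa, the vascular growth factor among them, had a median of 22.9 CPM in wild type and 53.8 CPM in the knockout (0.69, SE 0.394, 1.61-fold higher, edgeR adjusted p = 0.624), and the ranges overlapped. These medians pool treatments of unlike level and differ by more than the fitted effect.

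Genes of the cytokine responses gave 0 calls in the mean, where 0.392% of all genes were called. The type I interferon signature lay below 0 in 42 of 45 genes with a median of -0.24, but 1 gene alone had an unadjusted p under 0.05. The median was -0.59 in untreated cells and 0.04 after IFN, and over the alternatives it ranged from -0.63 to 0.061. Interferon-gamma response genes were balanced, 23 above and 24 below 0, and class I and class II antigen presentation genes had medians of 0.0092 and 0.10. Genes of IL4 and alternative activation had a median of 0.12 over 30, with 4 at an unadjusted p under 0.05, all above 0. Chil3, a chitinase-like protein of alternatively activated macrophages, had a mean effect of 3.02 (SE 0.824, edgeR adjusted p = 0.141). The differences were 4.87 untreated, 3.63 after IFN and 0.57 (SE 0.557) after IL4. Chil3 was at 41.2 to 209 CPM in wild type and 96.5 to 385 CPM in knockout cells given IL4, and at no more than 4.56 CPM in any library without IL4. The mean thus rested mostly on treatments in which Chil3 was scarce. Arg1, the arginase of the same state, and Nos2, the nitric oxide synthase of interferon-treated macrophages, had -0.52 (SE 0.6) and 1.71 (SE 2.24) with edgeR adjusted p of 0.85 and 0.877. After IFN, Nos2 stood at 8.65 to 97.6 CPM over both genotypes, and its difference was 0.43 (SE 0.576). In every other library Nos2 had no more than 0.37 CPM, and the differences there were 1.93 untreated and 2.76 after IL4. Adgre1, Irf1, Cxcl9, Cxcl10, Mrc1, Ccl22, Cp, Syncrip and Gapdh, also chosen for the rule by name, were not called, and each changed sign under some alternative.

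Of 31 macrophage identity genes, Lyz2 and Lyz1 were called, against 0.392% of all genes, and 25 lay above 0 with a median of 0.088. Csf1r, the receptor of macrophage colony-stimulating factor, was at 2881 to 3727 CPM in wild type and 2814 to 4188 CPM in knockout libraries (0.088, SE 0.0961, edgeR adjusted p = 0.841). Of 17 listed paired immunoglobulin-like receptors 7 were tested. They lay above 0 in 6 cases with a median of 0.35, and Pira2 was the called member, against 0.392% of all genes. Dendritic cell markers had 1 call in 11, the surface glycoprotein Cd24a (0.94, edgeR adjusted p = 0.0342), and integrated stress response genes 1 in 23, the lipoprotein receptor Vldlr. Both shares stand against 0.392% of all genes, and neither gene was called with correlated libraries of 1 place in limma-voom (adjusted p = 0.839 for Cd24a and 0.835 for Vldlr). Fibroblast and stromal markers had 0 calls in 18, and their median was -1.33 in untreated cells, 0.94 after IFN and 0.78 after IL4, so the mean of 0.20 averaged opposite differences. In 35 of the 41 lists 0 genes were called, among them cathepsins, lysosomal enzymes, glycolysis, NRF2 targets, chaperones, cholesterol synthesis, chemokines, Toll-like receptors and iron handling. With 0.392% of all genes called, lists of this size would mostly hold 0 calls, so the count says little about their genes.

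**Figure D5:**
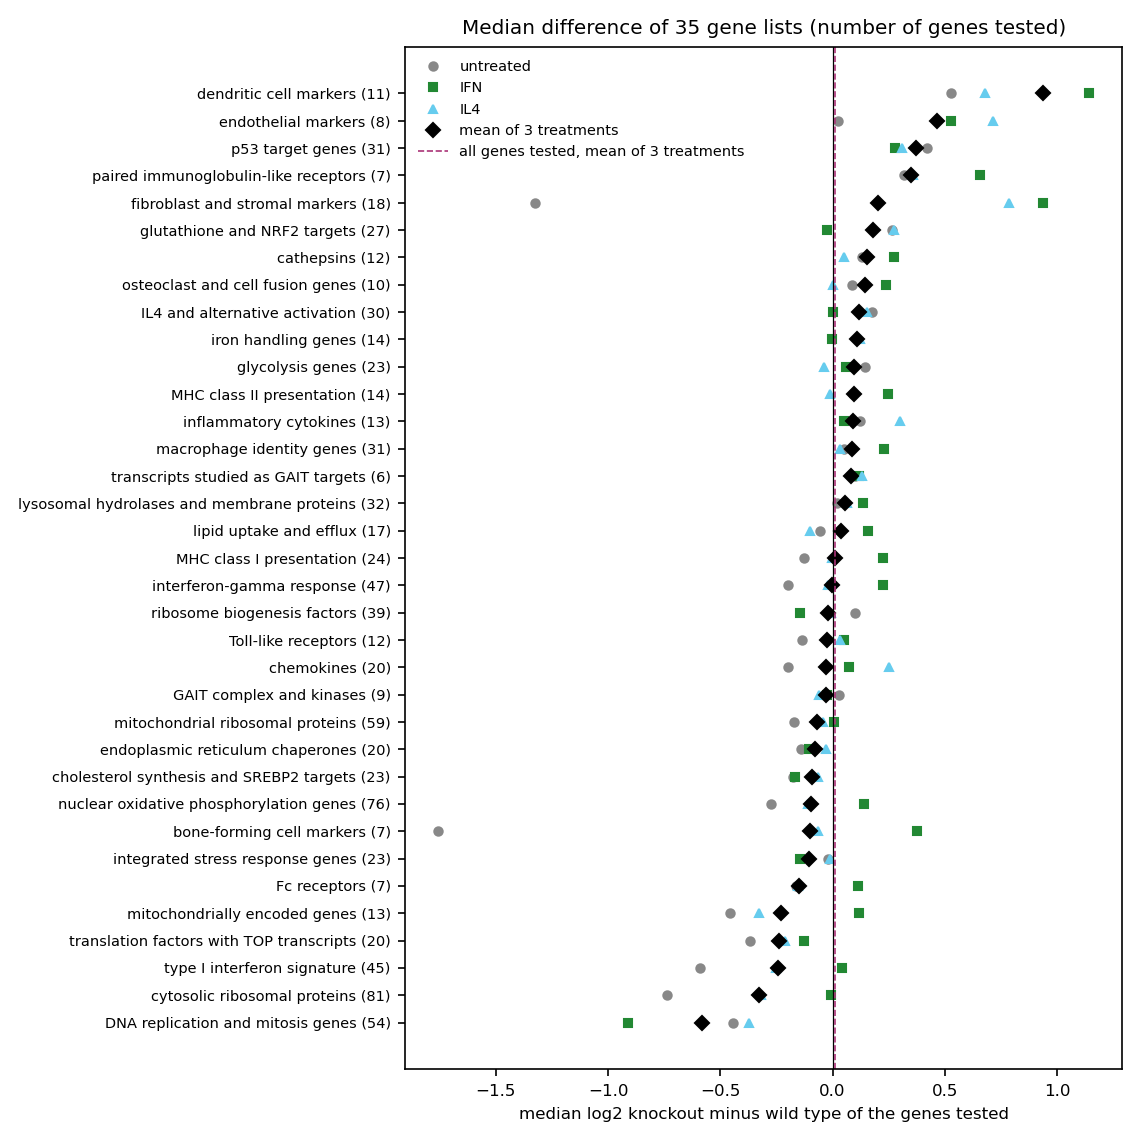
Median log2 difference of knockout minus wild type of 35 gene lists with at least 6 tested genes, as the mean effect (black) and in each treatment. Replication and mitosis genes and cytosolic ribosomal proteins have the lowest mean medians, and stromal markers, bone-forming markers and ribosomal proteins differ most between treatments.

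Several called genes were neighbours. On chromosome 12, 4 genes in a row among those tested were called higher: Srp54a (55080262 to 55115367), Fam177a, 1700047I17Rik2 (55199592 to 55217168) and Srp54b (55230168 to 55263836). Their mean effects were 1.15, 0.98, 1.01 and 0.45 (edgeR adjusted p = 0.00493, 1.47e-05, 0.00165 and 0.00147), with Egln3, a prolyl hydroxylase of hypoxia signalling, called higher 901281 bases before them (1.52, 0.0176). The tested genes on either side, 2700097O09Rik and Ppp2r3c, were at -0.12 and -0.011 and were not called. Srp54a and Srp54b encode the GTPase subunit of the signal recognition particle, and their longest open reading frames, 1515 bases each, were identical in GENCODE vM21. Reads from that frame cannot be assigned to either by sequence.

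Pira2 and Gm14548 on chromosome 7 are another such pair, 43 of 2043 coding bases apart, and both were higher (2.12 and 1.44). On the X chromosome Xlr4a, Xlr3a and Xlr4b, members of the X-linked lymphocyte regulated family, were all lower, and the frames of Xlr4a and Xlr4b differ at 6 of 648 bases. Xlr4a was at 0.778 to 2.76 CPM in wild type and 0.0594 to 0.374 CPM in knockout libraries (-2.76, edgeR adjusted p = 0.000131). Xlr3a had 142 counts over the 9 wild type and 3 over the 9 knockout libraries, 7 of which had 0, a ratio of 46.7 with an exact 95% interval of 15.7 to 229 that covers counting error only. The split of counts within each of these families is uncertain.

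Called genes near Rpl13a and Lyz2 were few in number, and the larger share near Lyz2 rested on 2 genes. Within 10 Mb of Rpl13a 117 genes were tested and 0 called besides it, and within 20 Mb 1 of 281 was called, the protease inhibitor Spint2. Within 10 Mb of Lyz2, Lyz1 was the called gene of 68 (1.47%), and Kitl was added within 20 Mb (2 of 137, 1.46%), against 0.392% of all genes. The split of counts between Lyz1 and Lyz2 is uncertain. Kitl was not called with the Y-linked transcripts as a covariate (edgeR adjusted p = 0.154). An unadjusted p under 0.05 was reached by 17.6% of the genes within 10 Mb of Lyz2 and 14.6% within 20 Mb. Near Rpl13a these shares were 11.1% and 8.54%, against 10.2% of all genes. The 49 genes lay on 16 chromosomes, 45 of them on autosomes and 4 on the X.

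The test of whether the knockout difference varied between the 3 treatments called 0 of 12514 genes (edgeR adjusted p under 0.05), while 352 had an unadjusted p under 0.05 (2.81%). DESeq2 called 12. Of the 49 genes, 3 had an unadjusted p under 0.05 in this test: Rab4a (0.0209), Ak1 (0.0314) and Rbm44 (0.0456). The lowest p belonged to Gm2000 (3.11e-05), Rps27 (4.57e-05), Rpl39 (0.000295) and Rps21 (0.000351), the last 3 of which encode ribosomal proteins. For Rps27 the difference was -1.47 in untreated cells, 0.85 after IFN and -0.93 after IL4, and Rpl39 (-1.24, 0.53, -0.82) and Rps21 (-1.27, 0.70, -0.80) had the same order. None of them was called in the mean. Averaging also lost 4 of the 10 calls of untreated cells, namely Ibsp and Alpl of bone-forming cells, the secreted factor Clec11a and the ribosomal protein transcript Rpl26. Alpl, the alkaline phosphatase of bone, was at -3.86 untreated and -1.05 and -0.99 after IFN and IL4 (mean -1.97, edgeR adjusted p = 0.0958). Rpl26 was at -0.97, 0.13 and -0.25 (mean -0.36, 0.139).

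The other called genes lay outside the naming rule and were chosen after their values were seen. Of the 49, 11 were below 5 CPM in both genotypes. Vldlr, the very low density lipoprotein receptor, was at 0.0503 to 0.867 CPM in wild type and 1.09 to 8.53 CPM in knockout libraries, without overlap (2.93, SE 0.451, edgeR adjusted p = 0.0031). Rbm44 and Rnf17, both known from germ cells, were lower (-3.13 and -2.13, edgeR adjusted p = 7.06e-05 and 0.000226), as was the cyclic AMP phosphodiesterase Pde4d (-1.23, 0.0176). Tnfsf4, the ligand of the costimulatory receptor OX40, was higher (2.09, edgeR adjusted p = 0.0432), as was Rprm, a p53-induced gene of cell cycle arrest, with 97 counts over the knockout against 8 over the wild type libraries. The junctional adhesion molecule F11r (0.86, 0.00741), the RNA-binding protein Msi2 (0.59, 0.0111), Lzts2 (0.59, 0.0306) and the predicted gene Gm16867 (1.26, 0.0141) were higher by edgeR's adjusted p. The mitochondrial hydratase Auh (-0.50, 0.0401) and the chromatin remodeller Chd9 (-0.43, 0.0299) were lower. At the threshold, the last called genes were Wdfy1, Igf2bp2 and Haus3 with adjusted p of 0.046, 0.0476 and 0.0482, and the first not called were Marveld2, Fam212b and Il21r at 0.0511, 0.0553 and 0.0564.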

How the data were processed

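Poly-A selected RNA of 18 libraries of bone marrow derived macrophages was sequenced. Reads were aligned with Bowtie 0.12.8 and quantified with RSEM 1.2.3 against mm10, per the submitters' processing notes. The annotation release and the strand setting are not given in the sources used here. The authors deposited expected counts per gene, which RSEM shares out among genes where a read fits several, and these were rounded to whole numbers. The authors' deposited TPM values served one alternative only.

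Genes were kept by edgeR's filterByExpr, libraries were scaled by TMM, and edgeR 4.0.16 (R 4.3.3) fitted 6 groups by robust quasi-likelihood with its current dispersion method. The mean effect was the average of the 3 knockout minus wild type contrasts, and a joint test of the differences between these contrasts gave the variation between treatments. A gene was called at a Benjamini-Hochberg adjusted p under 0.05. Levels are CPM with TMM scaling. The levels of Rpl13a and Lyz2 were also tested by exact two-sided permutation within treatments. Totals per library ran from 18098711 to 28477342, so precision differed little between libraries, and intervals on counts cover counting error only. The scripts were tested on simulated data.

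Named genes were called genes with at least 5 CPM in the higher genotype, 1 sign in all treatments and no clone or predicted name: the 12 largest rises and the 12 largest falls, up to 4 genes of each list with 3 or more calls, 19 genes set by name, and the 4 lowest p of variation. Of these genes, 2 are not reported here. The members and the 41 gene lists were chosen with earlier results of these data known. Library numbers were not treated as pairs, because the labels give them no shared source. All 9 same-numbered pairs had deviations correlated above 0 (median 0.475), with 2 of the 9 at or under 0.1. Alternatives covered scaling, filters, tools, blocks, sex-linked transcripts and left-out libraries. The fits with correlated libraries of 1 place (limma-voom, limma 3.58.1), sums by place, places left out, the place as a block and the older quasi-likelihood method were added after seeing the data. Promoter sequence came from RefSeq on GRCm38.p6 and coding sequence and positions from GENCODE vM21 on GRCm38, in which 21856 of 21954 gene symbols had a match.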

Additional observations from a re-analysis of the deposited data

How the results depend on the processing

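The count of called genes depended on how the spread between libraries was modelled, while all 49 genes kept their sign in each alternative that could fit them (48 of 48 without the untreated libraries). With the replicate number as a block, a pairing the labels do not support, 304 genes were called, 176 higher and 128 lower, and 9 of 18 libraries correlated best with their own number in the other genotype. With the place as a block there were 452 (193 higher, 259 lower). Letting libraries of 1 place be correlated left 11 (6 higher, 5 lower), and sums by place left 1 (0 higher, 1 lower). DESeq2 called 201 (114 higher, 87 lower) and 12 genes for variation between treatments. A stricter low-count filter gave 32, with 10 lower, and an additive model gave 32 lower. Libraries without Y-linked transcripts gave 18 (7 higher, 11 lower). Leaving out untreated cells gave 14 (7 higher, 7 lower), leaving out IL4 gave 15 (7 higher, 8 lower), and leaving out IFN gave 36 (12 higher, 24 lower). Without libraries 1, 4 and 7 there were 32, with 12 lower. Without 2, 5 and 8 there were 11 (5 higher, 6 lower), and without 3, 6 and 9 there were 157, with 119 lower. The cause of these shifts was not tested. Leaving out 1 library gave 33 to 68 calls, 20 to 38 higher and 11 to 30 lower, with 33 without wild type IFN 4 and 68 without knockout untreated 3. The same fits gave 0 to 7 genes for variation between treatments, with 7 without wild type IFN 6. In these fits the exact p of Rpl13a ranged from 0.00025 to 0.0015 and that of Lyz2 stayed at 0.00025. With a treatment or the libraries holding Y-linked transcripts left out, which allow fewer arrangements, the exact p was 0.005 to 0.0125 for Rpl13a and 0.005 to 0.00625 for Lyz2. The older quasi-likelihood method called 40, all among the 49. Of the 49, 29 were called in all 18 fits that left out 1 library. Low depth limits the 11 genes below 5 CPM.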
